A study of Homo sapiens with 32 samples.

Results

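The genes described here restrain mTORC1, the protein kinase complex that couples growth to nutrients. They are the sestrins SESN1, SESN2 and SESN3, the REDD genes DDIT4 and DDIT4L, the mTOR inhibitor DEPTOR, and the tuberous sclerosis genes TSC1 and TSC2. They were chosen by name, and the symbols of all 8 matched 1 row each among the 60660 gene identifiers of a count table. The table holds 32 libraries of poly(A)-selected RNA, all from HCT116, an established human line of colorectal carcinoma. All lines carried an inducible OsTIR1 transgene, whose product is a plant F-box protein. Parental cells were 2 samples, 3 clones had an IGF2BP3 knockout (A3, D12 and E4) and 3 had an IGF2BP2 knockout (B7, F6 and G6). Each line was a sorted single-cell clone made with Cas9, except the parental cells. Where a knockout is compared with parental cells, loss of the gene therefore cannot be told apart from editing and single-cell cloning. Clones A3 and E4 shared a guide, as did B7 and F6. Each line had 2 libraries in DMSO and 2 in tunicamycin, an inhibitor of N-linked glycosylation that causes endoplasmic reticulum stress, so n was 4 in parental groups and 6 in knockout groups. Parental and IGF2BP3 knockout cells received 5 µg/mL tunicamycin for 4 h, and the labels state neither dose nor time for the IGF2BP2 knockout clones. IGF2BP3 and IGF2BP2 are related RNA-binding proteins, and the comparison asked how their loss alters RNA levels with and without this stress.

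mTORC1 is switched on at the lysosome when amino acids activate the Rag GTPases and when growth factors keep RHEB bound to GTP. Sestrins act on the amino acid branch by binding GATOR2, and SESN2 does so as a leucine sensor. DDIT4, also called REDD1, acts on the growth factor branch through the TSC complex, in which TSC2 is the GTPase-activating protein for RHEB and TSC1 its stabilizing partner. In cells with unfolded protein, PERK signalling raises the transcription factor ATF4, and SESN2 and DDIT4 are known ATF4 targets, whereas SESN3 is best known as a FOXO target.

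SESN2 and DDIT4 were the 2 members that rose with tunicamycin, so the sequences before their start sites are shown. They were read from RefSeq promoters on GRCh38.p14, which had an entry for 7 members. Both lie on the plus strand, run 5′ to 3′ and end 11 bases before the RefSeq start site, at chr1:28259268-28259507 for SESN2 and chr10:72273674-72273913 for DDIT4. Capitals mark ATTGG, the CCAAT box read on the plus strand.
SESN2: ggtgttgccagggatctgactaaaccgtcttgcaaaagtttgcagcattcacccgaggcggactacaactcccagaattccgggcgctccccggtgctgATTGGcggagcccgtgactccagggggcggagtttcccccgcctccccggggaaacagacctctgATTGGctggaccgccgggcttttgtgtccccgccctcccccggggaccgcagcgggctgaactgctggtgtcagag
DDIT4: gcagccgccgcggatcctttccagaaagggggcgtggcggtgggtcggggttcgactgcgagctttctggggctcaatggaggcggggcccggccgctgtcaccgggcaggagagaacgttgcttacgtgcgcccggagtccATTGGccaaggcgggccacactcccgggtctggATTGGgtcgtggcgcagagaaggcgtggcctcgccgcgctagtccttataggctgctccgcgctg
Each window held 2 inverted CCAAT boxes, at positions -151 and -86 from the start site in SESN2 and at -108 and -75 in DDIT4. Motifs were searched in windows of 300 bases, 250 before the start site and 50 after it, which are longer than the stretches printed. Of 35116 such promoter windows, 34.6% held a CCAAT box (CCAAT) on either strand and 10.8% held at least 2. SESN1, which fell with tunicamycin, also held a single CCAAT box at some of its start sites, at -90 or -75, while SESN3, DDIT4L, TSC1 and TSC2 held none. The 3 other motifs of stress-response promoters, ERSE, ERSE-II and CRE (TGACGTCA), were searched on both strands and matched in none of the 7 members with an entry. They are rare in any promoter: of all windows, 0.0769% held ERSE, 0.0541% ERSE-II and 1.85% CRE. The core of the ATF4 response element (TGATGNAA) matched only in TSC2, as TGATGCAA at -110, and 3.62% of all windows held it. DDIT4 and 1 of the 2 TSC2 starts also held the hypoxia response core (ACGTG), as did 21.4% of all windows. These matches are letters in a window and show no binding.

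Total counts were 16651438 to 24913021 per library. In the knockout clones the targeted gene was lower but present. IGF2BP3 was at 70.1 to 82.8 CPM (counts scaled to library size) in parental DMSO libraries and 18.7 to 41.8 in those of the IGF2BP3 knockout. IGF2BP2 was at 159 to 195 CPM in parental DMSO libraries and 81.3 to 92.8 in those of the IGF2BP2 knockout. HSPA5, the endoplasmic reticulum chaperone, was at 774 to 1110 CPM over all DMSO libraries and 7920 to 10900 over all tunicamycin libraries. All 8 epithelial markers were detected, with EPCAM at 189 to 380 CPM over the DMSO libraries, and the lowest of them, CLDN3, at 3.4 to 8.56. Of 8 markers of other cell types, the collagen gene COL1A1 was at 4.61 to 11.1 CPM over the DMSO libraries and the mesenchymal gene VIM at 0.094 to 3.04. The other 6 (COL3A1, PDGFRB, PTPRC, CD3E, PECAM1 and VWF) reached at most 0.796 CPM in any library. The control libraries of clone G6 carry tunicamycin in their treatment field but control in their titles; they were placed in DMSO. In them SESN2 was at 5.79 and 4.07 CPM and DDIT4 at 3.1 and 2.64, within the range of the other DMSO libraries for DDIT4 and, for SESN2, reaching below it in the second. The number of genes with a count was 21259 to 23139 in libraries numbered replicate 1 and 23423 to 24267 in those numbered replicate 2. The labels do not say that replicates were separate cultures, so p-values measure the spread between these libraries, and libraries of 1 clone share that clone.

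Tunicamycin raised SESN2 and DDIT4 and lowered SESN1 and DDIT4L in all 3 genotypes. SESN3, DEPTOR, TSC1 and TSC2 did not pass the main test in any of them. So 4 of the 8 members passed in parental cells, where 26.8% of the 14398 genes tested passed (edgeR's quasi-likelihood test, Benjamini-Hochberg adjusted p under 0.05). The same count of 4 of 8 was found in the IGF2BP3 knockout, against 33.8% of 14265 genes, and in the IGF2BP2 knockout, against 40.1% of 14145 genes. As a second background, the libraries of DMSO and tunicamycin did not overlap for 28.8% of genes in parental cells, 16.8% in the IGF2BP3 knockout and 16.6% in the IGF2BP2 knockout. Bulk RNA cannot tell apart a change in every cell from a change in some cells. In parental cells the members' median log2 change was -0.08, beside -0.01 over all genes tested.

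SESN2 was the sestrin that moved most. In parental DMSO libraries (sample 1, replicates 1 and 2, then sample 2, here and for the other genes) it stood at 4.96, 4.95, 5.49 and 5.05 CPM, and in the tunicamycin libraries at 93.8, 83.2, 98.4 and 88.8. No library of one treatment came near the other. The fold was 17.8 (log2 4.15 ± 0.07, SE; adjusted p = 6.08e-10, edgeR). In the IGF2BP3 knockout SESN2 went from 5.6 to 7.27 CPM (median 5.7) to 85.4 to 106 (median 94.4), a fold of 15.9. In the IGF2BP2 knockout it went from 4.07 to 6.01 CPM (median 5.19) to 78 to 100 (median 91.4), a fold of 17.6. In each genotype every tunicamycin library was above every DMSO library, and the change in single lines ran only from log2 3.88 in clone E4 to 4.38 in clone F6.

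SESN1 moved the other way. Parental DMSO libraries held 12.4, 14.3, 11.8 and 13.9 CPM and tunicamycin libraries 8.29, 8.66, 7.41 and 7.78, with no overlap. The log2 change was -0.70 ± 0.10 (SE; adjusted p = 0.000506, edgeR's quasi-likelihood test). In the IGF2BP3 knockout SESN1 went from 15.1 to 19.7 CPM (median 18.1) to 8.03 to 10.3 (median 9.14), a log2 change of -0.94 ± 0.08. In the IGF2BP2 knockout it went from 13.8 to 19.3 CPM (median 14.8) to 7.17 to 10.9 (median 9.74), a log2 change of -0.77 ± 0.08. SESN1 was lower with tunicamycin in 8 of 8 lines, each with an adjusted p under 0.05 (edgeR), from log2 -1.12 in clone A3 to -0.65 in parental sample 1. Here and below, the 8 lines count the 2 parental samples separately, though both are the same parental cells. Each test by line compares 2 libraries per treatment, with the spread taken from all 32 libraries.

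SESN3 was the least abundant sestrin, with 21 to 116 counts per library. It stood at 2.94, 2.65, 3.82 and 3.87 CPM in parental DMSO libraries and at 3.35, 3.63, 3.09 and 2.83 in tunicamycin, and the treatments overlapped. Its log2 change was -0.03, with a 95% interval of -0.422 to 0.37 (adjusted p = 0.939, edgeR's quasi-likelihood test). It was higher with tunicamycin in 3 of 8 lines and lower in 5. Between genotypes and clones SESN3 differed more than any treatment change it showed, as given with the knockouts.

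Per kilobase of exon, the sestrins changed order. SESN1 led in parental DMSO libraries at 2.56 ± 0.23 CPM per kb (SD, n = 4), ahead of SESN2 at 1.48 ± 0.07 and SESN3 at 0.314 ± 0.059. In tunicamycin SESN2 led at 26.4 ± 1.9 CPM per kb, with SESN1 at 1.57 ± 0.11 and SESN3 at 0.305 ± 0.032. SESN2 thus made up 34.1% ± 2.5 (SD, n = 4) of sestrin reads per kb in parental DMSO libraries and 93.3% ± 0.8 in tunicamycin. The corresponding shares were 32.6% ± 1.9 and 93.3% ± 0.8 (n = 6) in the IGF2BP3 knockout and 30.3% ± 2.9 and 92.5% ± 1.5 (n = 6) in the IGF2BP2 knockout. Exon lengths were the union of all exons annotated for a gene in GENCODE release 29, so they can exceed the length of a single transcript. The authors may have counted on another annotation.

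**Figure D1:**
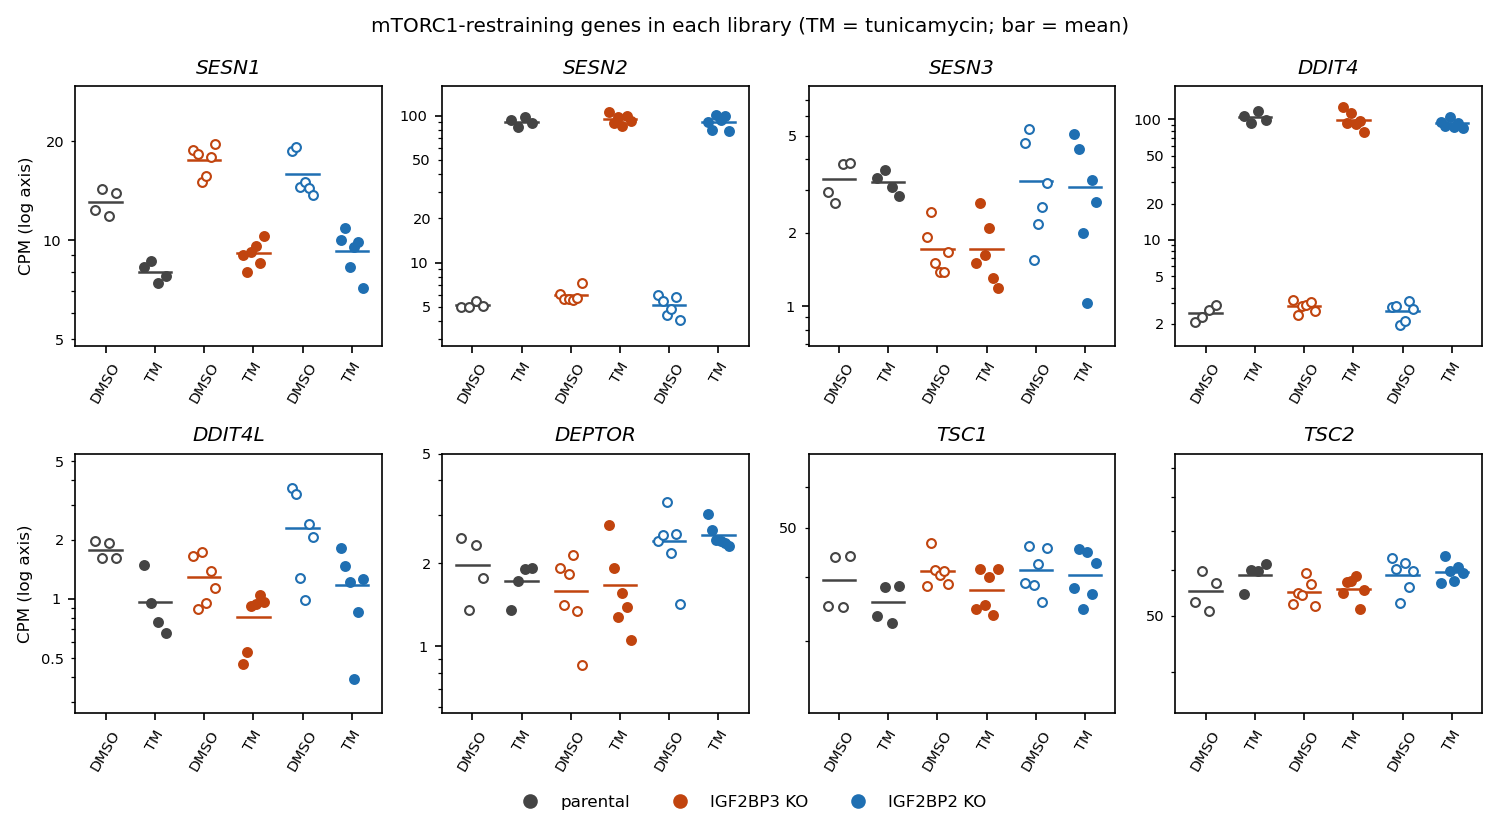
CPM on log axes, 1 panel per gene with its own range, for each library in DMSO (open) and tunicamycin (TM, filled), with parental cells in grey, IGF2BP3 knockout in orange, IGF2BP2 knockout in blue and bars at group means. SESN2 and DDIT4 sit far higher in every tunicamycin group, SESN1 lower, and SESN3 is lower in the IGF2BP3 knockout (DMSO mean 1.71 CPM) than in parental cells (3.32 CPM).

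DDIT4 had the largest change of the 8 members. Parental DMSO libraries held 2.06, 2.3, 2.6 and 2.89 CPM and tunicamycin libraries 108, 93, 118 and 99.8, a fold of 42.7 (log2 5.42 ± 0.10, SE; adjusted p = 9.2e-10, edgeR's quasi-likelihood test). The treatments were far apart in every line. In the IGF2BP3 knockout DDIT4 went from 2.39 to 3.15 CPM (median 2.83) to 78.2 to 126 (median 94.8), a fold of 35.5. In the IGF2BP2 knockout it went from 1.97 to 3.1 CPM (median 2.72) to 85.6 to 105 (median 90.8), a fold of 35.9. By line, the change ran from log2 4.95 in clone E4 to 5.55 in clone F6, the same clones that bounded SESN2. Within tunicamycin, the replicate 1 library of each line was higher than its replicate 2 library, as for SESN2. Within replicate number, the parental DDIT4 change was log2 5.60 for replicate 1 and 5.21 for replicate 2.

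DDIT4L, the paralogue also called REDD2, was sparse, with 8 to 76 counts per library. Parental DMSO libraries held 1.97, 1.61, 1.91 and 1.62 CPM and tunicamycin libraries 1.49, 0.952, 0.76 and 0.672. These groups did not overlap, and the log2 change was -0.90 ± 0.26 (SE; adjusted p = 0.0285, edgeR's quasi-likelihood test). In the IGF2BP3 knockout DDIT4L went from 0.884 to 1.73 CPM (median 1.26) to 0.468 to 1.04 (median 0.93), with a log2 change of -0.69 ± 0.24 (adjusted p = 0.0383, edgeR). In the IGF2BP2 knockout it went from 0.991 to 3.66 CPM (median 2.24) to 0.393 to 1.82 (median 1.24), with a log2 change of -0.94 ± 0.22 (adjusted p = 0.00306, edgeR). The treatments overlapped in both knockouts. DDIT4L was lower in 8 of 8 lines, and parental sample 2 and clones A3 and B7 reached an adjusted p under 0.05 alone.

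The DDIT4L calls were lost in several refits with fewer libraries. In edgeR the parental call was lost without parental sample 1 replicate 2 (log2 -0.96, adjusted p = 0.065), sample 2 replicate 1 (log2 -0.76, 0.115) or sample 2 replicate 2 (log2 -0.79, 0.11). The IGF2BP3 knockout call was lost without clone A3 (log2 -0.41, adjusted p = 0.255), D12 (log2 -0.78, 0.099) or E4 (log2 -0.90, 0.0803) in edgeR. With DESeq2 on all libraries of that knockout the adjusted p was 0.0612. The IGF2BP2 knockout call was lost without clone B7 (log2 -0.84, adjusted p = 0.0787, edgeR). The direction stayed the same in each. DDIT4 made up 66.6% ± 4.9 (SD, n = 4) of the reads per kb of both REDD genes in parental DMSO libraries and 99.4% ± 0.2 in tunicamycin.

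**Figure D2:**
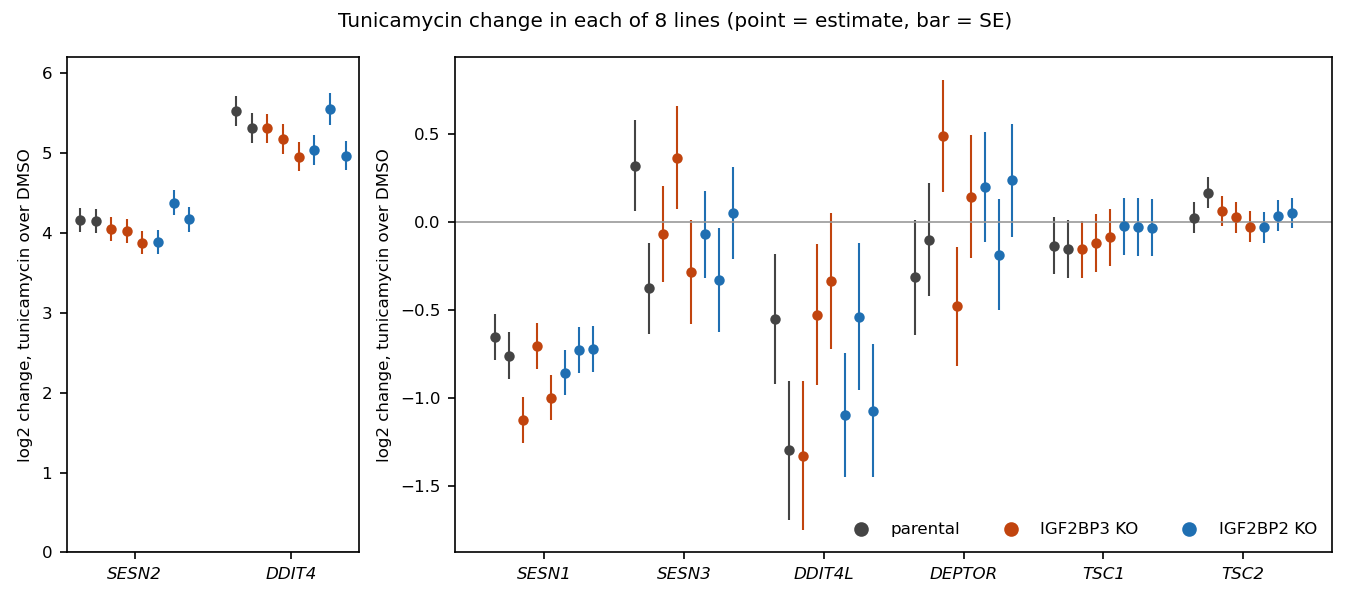
The log2 change with tunicamycin over DMSO in each of 8 lines (2 parental samples in grey, 3 IGF2BP3 knockout clones in orange, 3 IGF2BP2 knockout clones in blue), points being estimates and bars SE from a fit of all 32 libraries, with separate vertical axes for the left and right panels. SESN2 (3.88 to 4.38) and DDIT4 (4.95 to 5.55) were far above 0 in every line, SESN1 (-1.12 to -0.65) and DDIT4L (-1.33 to -0.34) below it.

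DEPTOR, a subunit that inhibits mTOR in both of its complexes, was also sparse, at 18 to 71 counts per library. Parental libraries held 2.48, 1.35, 2.32 and 1.77 CPM in DMSO and 1.35, 1.72, 1.9 and 1.92 in tunicamycin, which overlapped. The log2 change was -0.20, with a 95% interval of -0.727 to 0.329 (adjusted p = 0.607, edgeR's quasi-likelihood test). It was 0.07 (interval -0.371 to 0.512) in the IGF2BP3 knockout and 0.09 (interval -0.269 to 0.44) in the IGF2BP2 knockout, and 4 of 8 lines were higher. DEPTOR thus had among the widest intervals of the 8 members, and a small change was not detectable at this depth.

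TSC1 and TSC2 were measured far more precisely. TSC1 held 35.1, 43.8, 35 and 43.9 CPM in parental DMSO libraries and 33.5, 38.3, 32.5 and 38.4 in tunicamycin. Replicate 2 was higher than replicate 1 in both parental samples and both treatments. The log2 change of TSC1 was -0.14, with a 95% interval of -0.388 to 0.106 (adjusted p = 0.41, edgeR's quasi-likelihood test). When replicate numbers entered as a block, this TSC1 change passed (log2 -0.14, adjusted p = 0.0265, edgeR), each tunicamycin library being below the DMSO library of the same sample and number. TSC1 also passed in the IGF2BP3 knockout with counts summed per line (log2 -0.11, adjusted p = 0.048, edgeR). Its estimate was below 0 in 8 of 8 lines, from -0.16 to -0.03, and none passed the test alone. TSC2 held 52.9, 59.7, 51 and 56.8 CPM in parental DMSO libraries and 54.5, 60, 59.6 and 61.3 in tunicamycin. Its log2 change was 0.10 (interval -0.065 to 0.262) in parental cells, 0.03 (interval -0.074 to 0.126) in the IGF2BP3 knockout and 0.02 (interval -0.085 to 0.124) in the IGF2BP2 knockout. TSC2 had the narrowest intervals of the 8 members in the 2 knockouts.

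The order of all members per kilobase in parental DMSO libraries began with TSC2 (2.81 ± 0.20 CPM per kb, SD, n = 4), SESN1 (2.56 ± 0.23) and TSC1 (2.24 ± 0.29), neighbours that differed by little more than their SD. SESN2 (1.48 ± 0.07) and DDIT4 (1.2 ± 0.18) followed, then DEPTOR (0.754 ± 0.198) and DDIT4L (0.594 ± 0.064), which overlapped, and SESN3 was last. In tunicamycin DDIT4 came first at 50.9 ± 5.3 CPM per kb and SESN2 next at 26.4 ± 1.9, and the third, TSC2, was at 3.0 ± 0.15. The union of annotated exons was 19626 bases for TSC2 and 17600 for TSC1. Lengths of single transcripts could place these genes elsewhere in the order.

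Without stress, 2 of the 8 members differed between the IGF2BP3 knockout and parental cells, beside 1.61% of the 14568 genes tested (edgeR's quasi-likelihood test, Benjamini-Hochberg adjusted p under 0.05). SESN1 was higher in the knockout and SESN3 lower. Libraries of the 2 groups did not overlap for 4.4% of genes. SESN1 stood at 15.1 to 19.7 CPM (median 18.1) in the 6 knockout libraries, all above the parental 11.8 to 14.3 CPM. The log2 difference was 0.42 ± 0.10 (SE; adjusted p = 0.0395, edgeR). SESN3 stood at 1.38 to 2.43 CPM (median 1.58) in the knockout, all below the parental 2.65 to 3.87 CPM. The log2 difference was -0.95 ± 0.20 (SE; adjusted p = 0.0252, edgeR). Both directions held within each replicate number: SESN1 differed by log2 0.51 and 0.35 and SESN3 by -1.08 and -0.84, for replicates 1 and 2.

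Neither call held once the clone was the unit. With counts summed per line, so that 3 clones met 2 parental samples, the adjusted p of edgeR's test was 0.149 for SESN1 and 0.137 for SESN3, with log2 differences of 0.42 and -0.96. SESN1 also lost its call without clone A3 (0.117), clone E4 (0.103) or each parental library in turn (0.0532 to 0.146). SESN3 lost its call without clone D12 (0.0835), clone E4 (0.0756), parental sample 1 replicate 1 (0.0617), sample 2 replicate 1 (0.0993) or sample 2 replicate 2 (0.0812). CDKN1A, an inhibitor of the cell cycle, was higher in the same comparison by log2 0.48 ± 0.09 (SE; adjusted p = 0.0137, edgeR), and MDM2, a ubiquitin ligase, by 0.26 ± 0.06 (adjusted p = 0.0415, edgeR). ZMAT3, the third gene of the same short list, was at -0.02 ± 0.06 (adjusted p = 0.932, edgeR). In DMSO CDKN1A averaged 122 CPM in parental cells, 171 in the IGF2BP3 knockout and 169 in the IGF2BP2 knockout. MDM2 averaged 121, 146 and 135 CPM in that order, and ZMAT3 44.7, 44.1 and 50.6. Of these 3 genes, 0 passed between the IGF2BP2 knockout and parental cells, and 2 differed in level among the IGF2BP3 knockout clones. Between the knockouts SESN1 differed by log2 0.14 (95% interval -0.075 to 0.353). Whether these genes move together for one reason was not tested.

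The other 6 members did not pass. SESN2 libraries of the knockout (5.6 to 7.27 CPM) all lay above the parental ones (4.95 to 5.49 CPM), with a log2 difference of 0.23 and a 95% interval of -0.009 to 0.461 (adjusted p = 0.39, edgeR). DDIT4 differed by 0.18 (interval -0.138 to 0.502), DDIT4L by -0.47 (interval -0.929 to -0.005) and DEPTOR by -0.33 (interval -0.858 to 0.203). TSC1 differed by 0.05 (interval -0.129 to 0.238) and TSC2 by -0.01 (interval -0.139 to 0.12).

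In tunicamycin, 0 of the 8 members passed between the IGF2BP3 knockout and parental cells (edgeR's quasi-likelihood test), beside 0.718% of 14626 genes. At an unadjusted p under 0.05 the count was 1, and DESeq2 called 1, both SESN3. SESN3 stood at 1.19 to 2.65 CPM (median 1.56) in the knockout and 2.83 to 3.63 CPM in parental cells, without overlap, as for 3.09% of genes. The log2 difference was -0.90, with a 95% interval of -1.38 to -0.429 (adjusted p = 0.106, edgeR). SESN1, at 8.03 to 10.3 CPM in the knockout, overlapped the parental 7.41 to 8.66 CPM and differed by 0.18 (interval -0.03 to 0.391). Leaving out clone A3 moved SESN3 past the threshold (log2 -1.06, adjusted p = 0.046, edgeR).

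**Figure D3:**
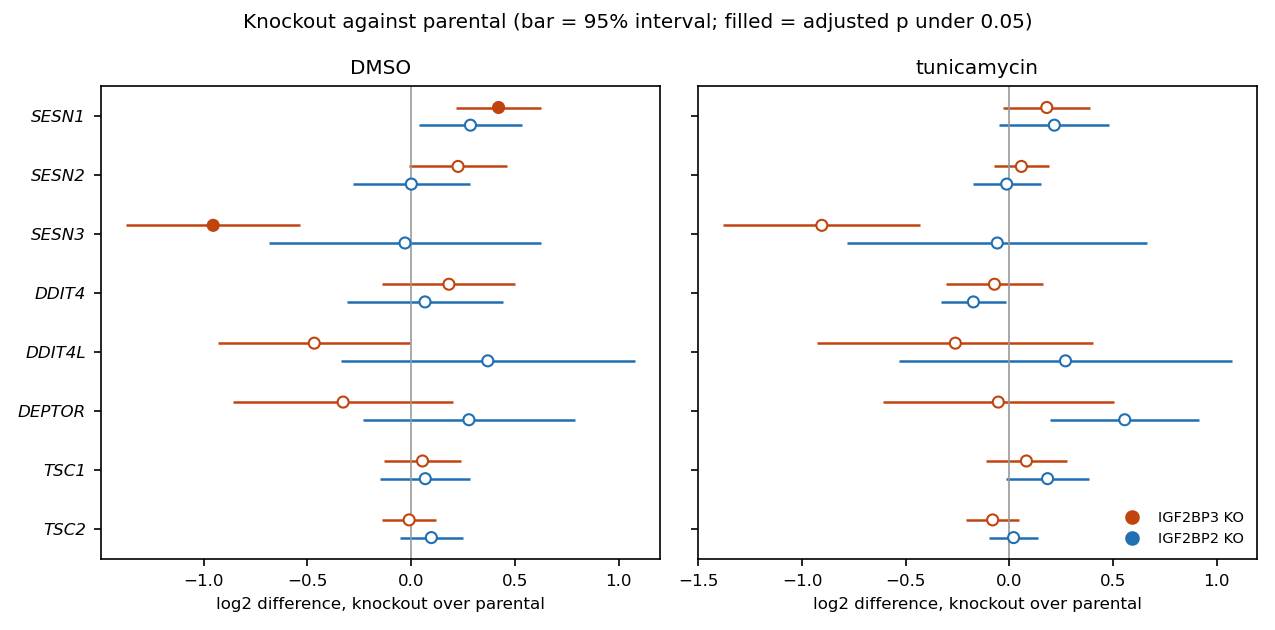
Log2 difference of each knockout from parental cells in DMSO (left) and tunicamycin (right), for the IGF2BP3 knockout in orange and the IGF2BP2 knockout in blue, with points as estimates, bars as 95% intervals and filled points at an adjusted p under 0.05. Only SESN1 (0.42) and SESN3 (-0.95) in the IGF2BP3 knockout in DMSO are filled; SESN3 has a similar estimate (-0.90) in tunicamycin.

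The IGF2BP2 knockout gave no member call against parental cells in DMSO (0 of 8 by edgeR's quasi-likelihood test, beside 0.0137% of 14564 genes). DESeq2 also called 0, and 1 member, SESN1, had an unadjusted p under 0.05 in edgeR. SESN1 stood at 13.8 to 19.3 CPM (median 14.8), overlapping parental libraries as every member did (1.06% of genes did not overlap), and differed by log2 0.29 with a 95% interval of 0.037 to 0.535 (adjusted p = 0.983, edgeR). SESN3, at 1.55 to 5.33 CPM (median 2.87), spread to both sides of the parental range and differed by -0.03 (interval -0.683 to 0.624). In tunicamycin 0 of 8 members passed by edgeR and 0 by DESeq2, beside 0.00694% of 14419 genes, and 2 (DEPTOR and DDIT4) had an unadjusted p under 0.05. DEPTOR libraries of the knockout, at 2.3 to 3.02 CPM (median 2.42), all lay above the parental 1.35 to 1.92 CPM, and 1.47% of genes separated as fully. The log2 difference was 0.56, with a 95% interval of 0.196 to 0.917 (adjusted p = 0.695, edgeR). DDIT4 differed by -0.17 (interval -0.33 to -0.017).

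Between the knockouts in DMSO, 0 of 8 members passed by edgeR's quasi-likelihood test, beside 0.589% of 14250 genes. At an unadjusted p under 0.05 there were 3 (SESN3, DDIT4L and DEPTOR), all lower in the IGF2BP3 knockout, and DESeq2 called 1, SESN3. SESN3 differed by log2 -0.92, with a 95% interval of -1.512 to -0.331 (adjusted p = 0.149, edgeR). Clone F6 of the IGF2BP2 knockout lay within the IGF2BP3 knockout range, and without it SESN3 (log2 -1.20, adjusted p = 0.0203) and DDIT4L (log2 -1.16, adjusted p = 0.023) passed in edgeR. For no member did all libraries of one knockout lie beyond those of the other, as they did for 1.4% of genes.

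The tunicamycin change of the 8 members did not differ detectably between genotypes. The interaction of the IGF2BP3 knockout with parental cells was called for 0 members and 0% of 15313 genes by edgeR's quasi-likelihood test. DESeq2 called 0, and 255 genes, none of them a member, had an unadjusted p under 0.05. For the IGF2BP2 knockout the calls were 0 members and 0% of 15178 genes in edgeR and 0 in DESeq2, with 213 genes and 0 members at an unadjusted p under 0.05. Between the knockouts they were 0 members and 0% of 14916 genes in edgeR and 0 in DESeq2, with 271 genes and 0 members.

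The intervals show how large a difference these libraries could hide. For SESN2 the change in the IGF2BP3 knockout differed from the parental change by log2 -0.16, with a 95% interval of -0.39 to 0.071. For DDIT4 it differed by -0.26 (interval -0.654 to 0.135). For SESN1 it differed by -0.23 (interval -0.499 to 0.037). In the IGF2BP2 knockout the differences were -0.01 (interval -0.315 to 0.289) for SESN2, -0.25 (interval -0.588 to 0.092) for DDIT4 and -0.07 (interval -0.316 to 0.186) for SESN1. The bounds of SESN2 and DDIT4 are small only beside their parental log2 changes of 4.15 and 5.42. They still allow a weaker rise in the IGF2BP3 knockout, with a difference down to log2 -0.39 for SESN2 and -0.654 for DDIT4. The bounds of SESN1 are not small beside its parental change of -0.70. For DDIT4L and DEPTOR the bounds reach 0.959 and 0.928 in the IGF2BP3 knockout.

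Among the IGF2BP2 knockout clones 3 of 8 members differed in level, near the share of 26.4% over 14145 genes (edgeR's quasi-likelihood F test over 3 clones with treatment as a term). SESN3 (adjusted p = 0.000161, edgeR) was at 4.67 and 5.33 CPM in the DMSO libraries of clone B7, 1.55 and 2.17 in F6 and 2.55 and 3.19 in G6. DDIT4L (adjusted p = 0.00394, edgeR) was at 3.66 and 3.4 CPM in B7, 1.27 and 0.991 in F6 and 2.42 and 2.06 in G6. SESN1 (adjusted p = 0.0159, edgeR) was at 18.7 and 19.3 CPM in B7, 14.5 and 15.1 in F6 and 14.4 and 13.8 in G6. B7 was highest for all 3 genes, although B7 and F6 were made with the same guide. Without B7 the calls were lost, with adjusted p of 0.0563 for SESN3, 0.169 for DDIT4L and 0.795 for SESN1 in edgeR. DDIT4L also lost its call without F6 (0.0522) and SESN1 without the clone G6 control libraries (0.085). Of the epithelial markers 7 of 8 also differed in level among these clones, as did both of the tested markers of other cell types, COL1A1 and VIM. CDH1, the epithelial cadherin, was at 16.5 to 74.9 CPM in their DMSO libraries, and VIM at 0.094 to 2.56. Their part in the result was not tested.

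Among the IGF2BP3 knockout clones 0 of 8 members differed in level by edgeR's quasi-likelihood F test, beside 7.63% of 14265 genes, 2 (SESN3 and DEPTOR) had an unadjusted p under 0.05, and DESeq2 called 0. SESN3 was at 1.92 and 2.43 CPM in the DMSO libraries of clone A3, 1.5 and 1.38 in D12 and 1.38 and 1.66 in E4 (adjusted p = 0.242, edgeR). DEPTOR was at 1.92 and 1.41 CPM in A3, 1.83 and 2.13 in D12 and 1.34 and 0.855 in E4 (adjusted p = 0.161, edgeR). All 3 clones, A3 and E4 made with one guide and D12 with another, lay below the parental DMSO range for SESN3. The tunicamycin change differed among clones for 0 members and 0% of genes in each knockout by edgeR's test, and DESeq2 called 0 members. At an unadjusted p under 0.05 there were 85 genes and 0 members in the IGF2BP3 knockout and 193 genes and 1 member, DDIT4, in the IGF2BP2 knockout.

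Of 9 transcription factors known to act on sestrin or REDD genes, 8 passed with tunicamycin in parental cells, 7 higher and 1 lower (edgeR's quasi-likelihood test, beside the same 26.8%; median log2 change 0.54). DDIT3, the CHOP factor of the PERK branch, rose by log2 6.81 ± 0.16 (SE), CEBPB by 2.32 ± 0.07 and ATF4 by 1.25 ± 0.07. NFE2L2, the oxidative stress factor, rose by 0.73 ± 0.08, FOXO3 by 0.54 ± 0.06 and NR3C1, the glucocorticoid receptor, by 0.24 ± 0.06. FOXO1 fell by 0.88 on the log2 scale (SE 0.16), and HIF1A was at 0.05 ± 0.06 (adjusted p = 0.57, edgeR). The count was 7 of 9 in the IGF2BP3 knockout, beside 33.8% of all genes, and 9 of 9 in the IGF2BP2 knockout, beside 40.1%. CDKN1A, the cell cycle inhibitor, rose by log2 0.62 ± 0.05 in parental cells, while MDM2 was at -0.04 ± 0.05 (adjusted p = 0.686, edgeR) and ZMAT3 fell by 0.24 on the log2 scale.

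Downstream of mTORC1, 7 of 10 tested effector genes passed in parental cells, 5 higher and 2 lower, beside 26.8% of all genes, with a median log2 change of 0.20 beside -0.01 over all genes. TFE3, a lysosomal transcription factor held in the cytoplasm by mTORC1, rose by log2 0.81 ± 0.06 (SE), and GRB10, an mTORC1 substrate that restrains insulin signalling, by 0.76 ± 0.07. TFEB, the paralogue of TFE3 and named after its values were seen, fell by 0.75 on the log2 scale (SE 0.17), and EIF4EBP2, a translation repressor, fell by 0.40 (SE 0.06). The counts were 7 of 10 in the IGF2BP3 knockout, beside 33.8%, and 8 of 10 in the IGF2BP2 knockout, beside 40.1%.

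The amino acid branch that sestrins act on showed both directions. Of 27 tested genes of the GATOR complexes, Rag GTPases and their lysosomal anchors, 4 rose and 3 fell in parental cells, near the background of 26.8%, with a median log2 change of 0.02. SLC38A9, the lysosomal arginine sensor, rose by log2 0.51 ± 0.08 (SE) and LAMTOR3, a Ragulator subunit, by 0.23 ± 0.06. FNIP2, the partner of folliculin, fell by 0.79 on the log2 scale (SE 0.09) and CASTOR2, a paralogue of the arginine sensor CASTOR1, fell by 0.66 (SE 0.11). In the IGF2BP3 knockout 7 of the 27 rose and 6 fell, beside 33.8% of all genes, and in the IGF2BP2 knockout 7 rose and 11 fell, beside 40.1%.

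Of 11 tested genes of the mTOR complexes and RHEB, 1 passed in parental cells, beside 26.8% of all genes, RHEBL1, a RHEB paralogue (log2 0.92 ± 0.25, SE; adjusted p = 0.021, edgeR), and MTOR itself was at -0.07 ± 0.05 (adjusted p = 0.392, edgeR; the 2 genes were named after their values were seen). In the IGF2BP3 knockout 1 of 10 rose and 2 fell, beside 33.8%, and in the IGF2BP2 knockout 2 rose and 3 fell, beside 40.1%. Of 12 tested genes for kinases upstream of the TSC complex, and their regulators, 2 rose and 2 fell in parental cells and likewise in the IGF2BP3 knockout, and 3 rose and 5 fell in the IGF2BP2 knockout, beside the same shares. PRKAG1, an AMPK subunit, rose by log2 0.30 ± 0.06 and PDPK1 by 0.21 ± 0.06, while PIK3R1, the regulatory subunit of PI3-kinase, fell by 0.63 on the log2 scale (SE 0.08).

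**Figure D4:**
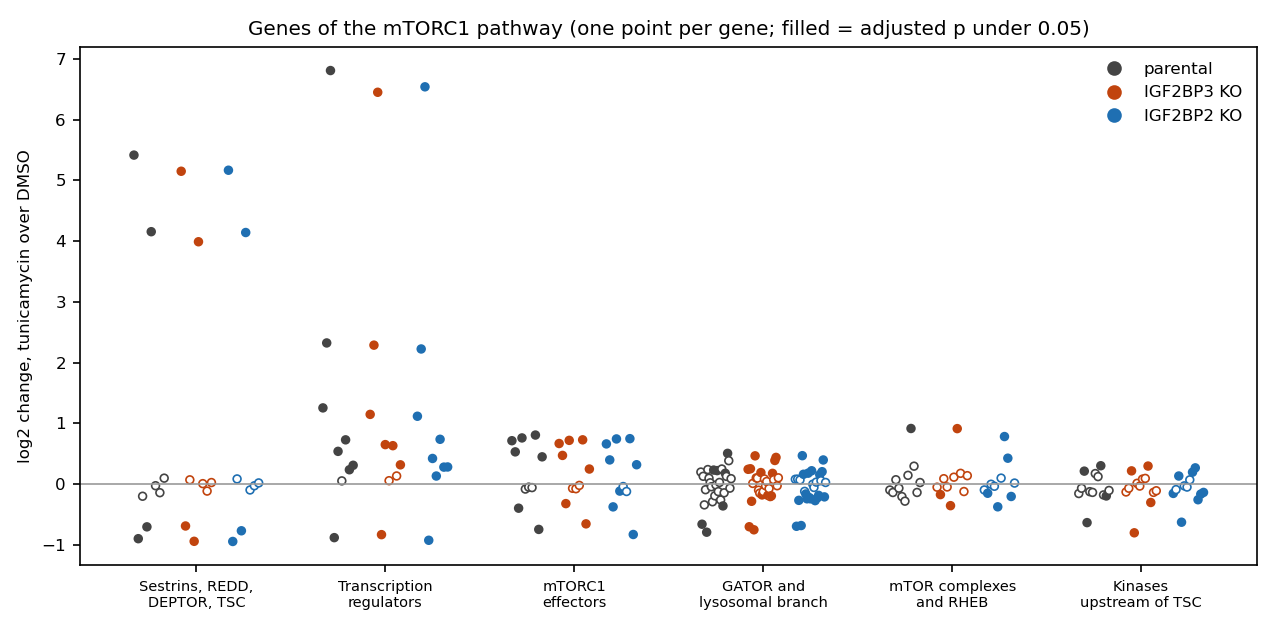
Log2 change with tunicamycin over DMSO for each tested gene of the 8 members and 5 pathway lists, in parental cells (grey), IGF2BP3 knockout (orange) and IGF2BP2 knockout (blue), with filled points at an adjusted p under 0.05. DDIT4, SESN2 and the regulators DDIT3, CEBPB and ATF4 lie above 1, while every gene of the other 4 lists lies between -1 and 1.

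In DMSO few genes of these lists passed between the IGF2BP3 knockout and parental cells, where few genes passed at all, so the counts do not set the lists apart. In that comparison 0 of 27 amino acid branch genes, 0 of 10 mTOR complex genes and 0 of 10 effectors passed in edgeR's test, beside the same 1.61%. Of the upstream kinase list 1 of 12 passed, PRKAA2, an AMPK catalytic subunit (named after its values were seen), at log2 -0.39 (adjusted p = 0.0206, edgeR). Of the 9 regulators 1 passed, NR3C1, at log2 -0.24 ± 0.05 (SE; adjusted p = 0.0328, edgeR). FOXO factors are known to act on SESN3, and FOXO1 was at log2 -0.27 ± 0.10 (adjusted p = 0.205, edgeR) and FOXO3 at -0.05 ± 0.05 (adjusted p = 0.772, edgeR). In DMSO FOXO1 stood at 6.98 to 9.87 CPM in the IGF2BP3 knockout, 9.3 to 11 in parental cells and 11.7 to 16.3 in the IGF2BP2 knockout. FOXO3 ranges overlapped (44.9 to 53.4, 47.4 to 55.7 and 46.8 to 65.5 CPM). Any link to SESN3 was not tested.

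Across the 16 means of line and treatment, the genes most like each member were ranked by Pearson r of log2 CPM among 12320 genes, as a description of means that share libraries. SESN2 was most like DDIT4 (r = 0.999), DDIT3 (0.998) and HERPUD1 (0.998), and DDIT4 most like SYVN1, HERPUD1 and SESN2 (each 0.999). HERPUD1 and SYVN1 serve the degradation of endoplasmic reticulum proteins, and these r values mostly reflect the gap between the treatments. With each treatment mean subtracted, the closest gene to SESN2 was UBALD2 (0.825) and to DDIT4 SNU13 (0.697), so neither member was the closest of the other. SESN1 was most like ERCC6L (0.967) and BTG2 (0.965). SESN3 was most like HTR7 (0.954) with or without the treatment means, as its differences lay between lines.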

How the data were processed

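The authors deposited raw counts, whole numbers for each gene, made from poly(A)-selected, directional libraries with paired reads, per the labels' protocols. Per the submitters' processing notes the tools include STAR 2.7.5c and the build is hg38; the counting tool, the annotation and whether counting used strand are not given in the sources used here, so overlapping and antisense genes are uncertain. Symbols were matched by identifier, which gave 42060 usable symbols among 60660 identifiers. Groups came from the sample titles.

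Each of 15 comparisons was fitted to the libraries it concerns with edgeR 4.0.16 in R 4.3.3 (TMM, filterByExpr, quasi-likelihood test, Benjamini-Hochberg adjustment over all genes tested, threshold 0.05). The line entered the treatment and interaction fits as a term. SE and 95% intervals follow from the quasi-likelihood F statistic. CPM were TMM-normalized over all 32 libraries. The log2 changes by line came from 1 fit of all libraries. Replicate pairs differed by more than counting noise (chi-square 4.95 to 28.2 per degree of freedom), so none was treated as a duplicate. The fits were tested on simulated counts of independent libraries, without differences between lines or replicate numbers. That test therefore does not cover libraries that share a clone.

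Alternatives were a replicate block, DESeq2 1.42.0, its size factors, no filter on low counts, all 32 libraries in 1 fit, counts summed per line, leaving out the control libraries of clone G6, and leaving out each clone or parental library. The members and gene lists were chosen with earlier results of these data known. Pathway genes were named by a rule: per list, up to 2 with the largest rise and 2 with the largest fall in parental tunicamycin response, with a mean count of at least 100; transcription regulators, 3 stress-response genes (CDKN1A, MDM2 and ZMAT3), treatment checks and targeted genes could always be named. Positions and promoters use GRCh38, promoters from RefSeq. Results for items withheld here are not reported.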

Additional observations from a re-analysis of the deposited data

Results flagged for a closer look

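Of 48 groups of libraries tested for a value standing apart, 2 held one, and chance gives about 1 in 20 groups. SESN2 in the IGF2BP3 knockout in DMSO had 7.27 CPM in clone E4 replicate 2, and the nearest library had 6.12 CPM. TSC1 in the IGF2BP3 knockout in DMSO had 46.6 CPM in clone A3 replicate 2, and the nearest library had 41.4 CPM. The gap, divided by the group's whole range, was 0.689 for SESN2 and 0.635 for TSC1, each above Dixon's 95% critical value for 6 libraries.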

How the results depend on the processing

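Over 168 counts of members called under an alternative, 150 were within 1.5 times the main count. Of 1344 values for a single member, 1306 kept their call and direction, 26 lost the call, 12 gained one and 0 reversed. Both totals include members and comparisons without a call in the main fit, where no call could be lost, so they do not measure how firm the calls are. Against parental cells in DMSO, the IGF2BP3 knockout calls of SESN1 and SESN3 were lost in 7 and 6 of 13 alternatives. For the IGF2BP3 knockout against parental cells in DMSO, 2 members were called, 0 with counts summed per line and 0 to 1 when a clone or parental library was left out. For the same comparison in tunicamycin, 0 became 1 with the replicate block, DESeq2, no filter, all libraries in 1 fit, or without clone A3, each time SESN3. Between the knockouts in DMSO, 0 became 1 with DESeq2 and with all libraries in 1 fit, and 0 to 2 when 1 clone was left out. Among the IGF2BP3 knockout clones, 0 became 1 with the replicate block, and among the IGF2BP2 knockout clones 3 became 0 without clone B7. The cause was not tested.

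Same-numbered replicates deviated together (r 0.0878 to 0.551, median 0.376, over 120 pairs of line and treatment, 119 above 0.1), but the labels tie the number to no shared culture. With the replicate block, SESN3 passed in the IGF2BP3 knockout against parental cells in tunicamycin (log2 -0.92, adjusted p = 0.0294), TSC1 in the parental tunicamycin response (-0.14, adjusted p = 0.0265), and DDIT4 among the IGF2BP3 knockout clones (adjusted p = 0.0446), all by edgeR's quasi-likelihood test. The block changed no other member's call. TSC1 also passed in the IGF2BP3 knockout response with counts summed per line (adjusted p = 0.048, edgeR).

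Over all genes, the calls ranged from 47 (counts summed per line) to 513 (replicate block) for the IGF2BP3 knockout in DMSO, against 235, and from 29 to 491 in tunicamycin, against 105. They ranged from 1 to 156 for the IGF2BP2 knockout in DMSO, against 2, from 0 to 245 in tunicamycin, against 1, and from 1 to 925 between the knockouts, against 84. Among clones they ranged from 194 to 2080 (IGF2BP3 knockout, against 1089) and from 1564 to 5844 (IGF2BP2 knockout, against 3729). For the parental tunicamycin response they ranged from 2519 to 5989, against 3854. Depth limits DDIT4L, DEPTOR and SESN3, whose median counts were 24, 41.5 and 55.5 per library.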
